A study of Mus musculus with 6 samples.

Results

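The 75 genes described here build and run cilia, and they were taken from a table of 22057 genes by their names alone. A gene was included when its symbol began with Ift or Bbs and a digit, with Cfap, Dnah, Dnai and a digit, Rsph or Tctn, or was Hydin. One member, Ift88os, is a noncoding gene antisense to Ift88 that the name rule caught. The libraries came from cultured neural progenitor cells of p53-null mice, in which the tumour suppressor p53 is missing. The PDGFA group (n = 3) had spent 4 days with platelet-derived growth factor A, for which the labels' protocol writes 20 ug/ml. The EF group (n = 3), named as control, had spent 4 days in medium for stem cells that held heparin and the growth factors EGF and FGF; the labels leave unclear whether the PDGFA medium held heparin too. Mice 62, 68 and 69 each gave 1 library to each group, all libraries share the p53-null genotype, and age, sex, strain and the form of the p53 allele are not given in the labels.

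A cilium is a thin protrusion built on a microtubule core, the axoneme, that grows from a basal body. Intraflagellar transport (IFT) trains carry building blocks along it: the IFT-B complex travels outward with kinesin, and the IFT-A complex returns with dynein. The BBSome, named after Bardet-Biedl syndrome, moves membrane receptors, and the transition zone at the base, which holds the tectonic proteins, decides what enters. Neural progenitor cells carry a primary cilium, which does not beat and through which Hedgehog signals pass. Ependymal cells of the brain ventricles carry tufts of motile cilia, whose axonemes add dynein arms, radial spokes and a central pair of microtubules.

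Values are normalized counts, that is reads per gene divided by the library's size factor, and they are listed in the order of mice 62, 68 and 69. Libraries held 27270246 to 39601349 reads. A gene was tested with limma when its mean over the 6 libraries was at least 10, and it was called when its two-sided Benjamini-Hochberg adjusted p over the 17068 genes tested was under 0.05. A second fit, the paired fit, also held the mouse as a term (a block), and its value is given where it changes a call. Log2 fold changes are PDGFA over EF on the log2(normalized count + 1) scale, so that changes at low counts come out too small. The kit named in the labels' protocols is known as one that does not mark strand, and the strand setting of the counting is not stated, so reads from exons of 2 genes on opposite strands are taken here as not separable: 30 members share exon bases with another gene, 29 of them with one on the opposite strand.

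Of the 75 cilium genes, 60 were tested and 15 were below the filter. In PDGFA 22 of the 60 rose, which is 36.7%, where 21.8% of all genes tested rose. Only 3 of the 60 fell, Dnah14, Hydin and Cfap20, which is 5.0%, where 18.0% of all genes tested fell. The other 35 were not called. The median log2 fold change was 0.30 over the 60 and -0.01 over all genes tested. The 2 groups of libraries did not overlap in 25 of the 60 members, higher in PDGFA, and in 5 of the 60, lower in PDGFA, where 29.2% and 26.3% of all genes tested did so. Of the 25 called members, 6 passed the filter with a mean under 10 in their lower group: Cfap57, Cfap70, Dnah9, Dnah5 and Cfap44 among those that rose, and Dnah14 among those that fell. The groups of all 25 called members did not overlap, so that all 3 mice had to agree in direction. Without the PDGFA library of mouse 68, 13 rose and 3 fell (21.7% and 5.0% of the 60), where 13.5% of all genes tested rose and 10.9% fell. Without both libraries of mouse 68, 9 rose and 3 fell (15.0% and 5.0%), where 11.4% of all genes tested rose and 7.82% fell, and Bbs10, Ift46, Bbs4 and Cfap36 were among the calls lost. With the mouse as a block in that fit, 8 rose and 3 fell (13.3% and 5.0%). Of all genes tested, 14% rose and 11% fell there, and the call of Bbs1 was lost too (limma adjusted p = 0.0537). The share of members that rose was not above that of all genes tested in this blocked fit without mouse 68. No other mouse was left out with both its libraries. Whether the share depends more on mouse 68 than on another mouse was therefore not tested. With the block and all libraries, 18 rose and 3 fell (30.0% and 5.0%), where 18.8% of all genes tested rose and 15.4% fell.

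Fold changes of the tested members are shown by role in the plot of fold changes by role. Counts by role, here and below, are to be read beside the 21.8% of all genes tested that rose and the 18.0% that fell. Some lie near these shares, and most role groups hold few genes. Among the 25 transport and transition zone genes, all tested, 9 rose and none fell by limma, and their log2 fold changes lay between -0.71 and 1.23. At an unadjusted p under 0.05, 1 of them was lower, Bbs12, which DESeq2 called and edgeR did not. Among the 35 tested axoneme and other CFAP genes (cilia and flagella associated proteins), 13 rose and 3 fell, with values between -4.07 and 4.43. The medians of the transport and the axoneme members were 0.27 and 0.42.

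**Figure D1:**
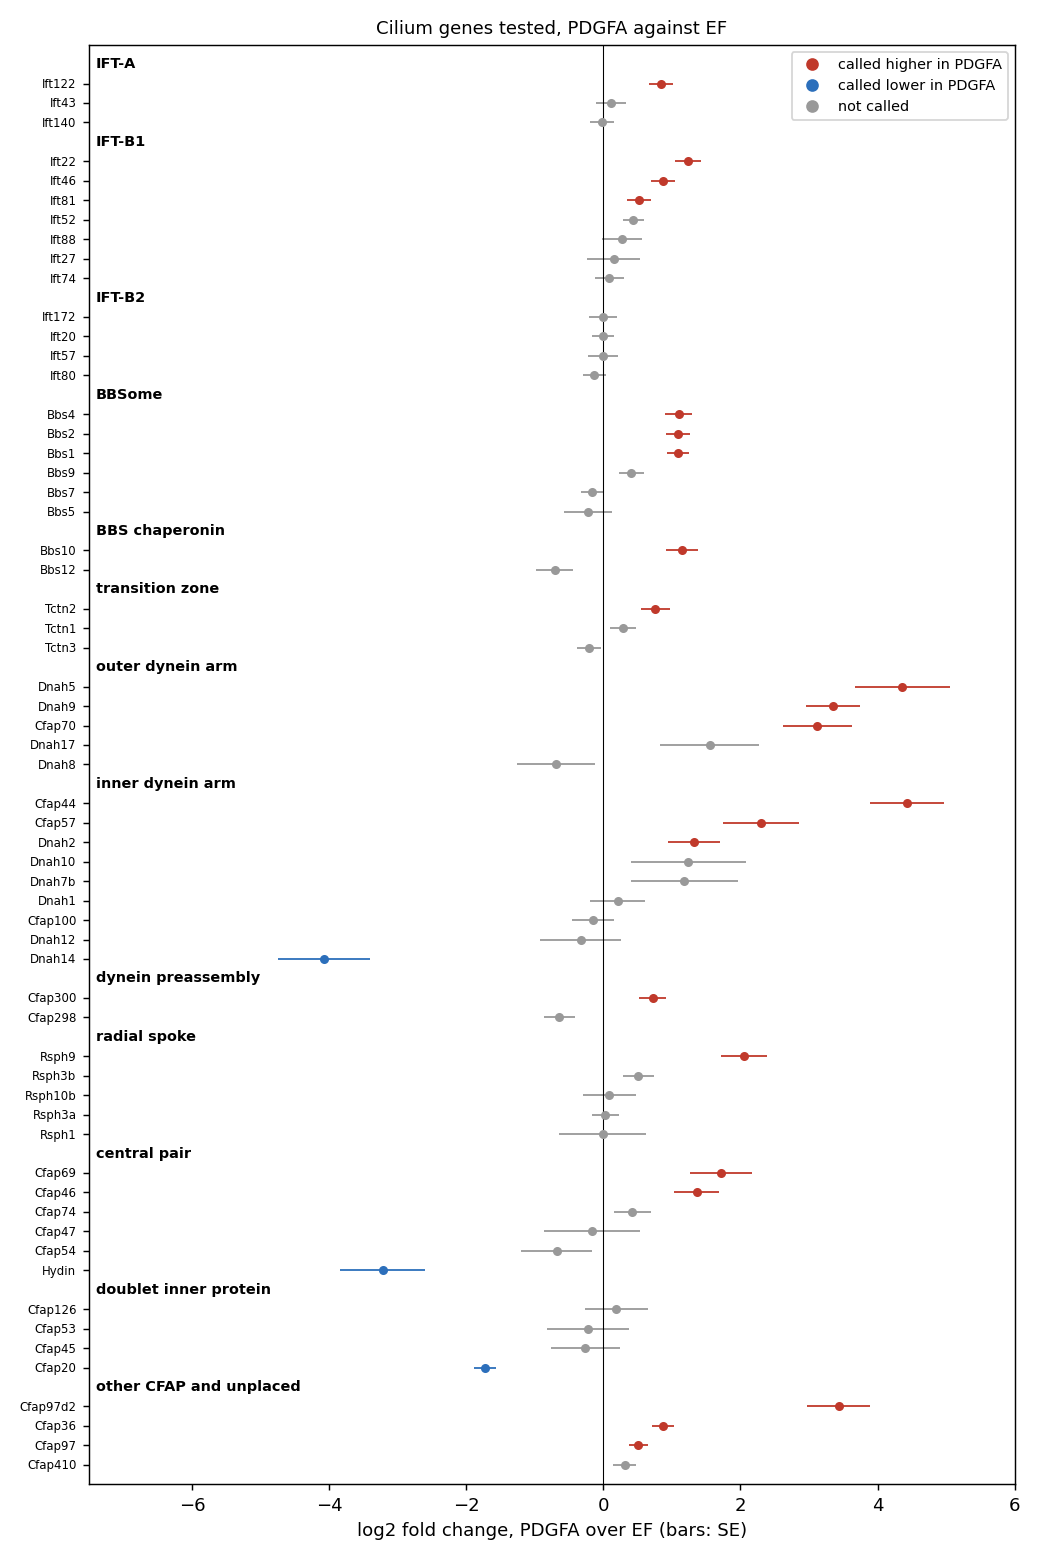
Log2 fold change (PDGFA over EF) of the 60 tested cilium genes on the x axis, with 1 gene per line grouped by role; points are limma estimates and bars their SE. Transport genes sit between -0.71 and 1.23, while axoneme genes spread from -4.07 for Dnah14 to 4.43 for Cfap44.

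Markers of cell types moved between the groups as well. Of 14 ependymal markers 8 were in the table and 5 tested, of which 3 rose: Foxj1, Meig1 (168, 214 and 124 in PDGFA, against 6.70, 5.63 and 1.28 in EF) and Tppp3, at a log2 fold change of 0.87 ± 0.29 (SE, limma adjusted p = 0.0482). Meig1 passed the filter with an EF mean under 10. The Tppp3 call was lost in the paired fit (adjusted p = 0.0977) and when any 1 library was left out (0.0515 to 0.194), within 0.0142 to 0.438 over its alternatives. The summed level of the 8 was 909.8 to 1291 in PDGFA and 205 to 385 in EF, and Fam183b was at 0 in EF. Most of that sum was Foxj1, at 609 to 897 in PDGFA and 110 to 257 in EF. Dynlrb2 and Rarres2 were not called, at log2 fold changes of 0.60 and 0.84. Below the filter, Mia had means of 3.80 in PDGFA and 3.36 in EF, and Cdhr3 0.637 in PDGFA and 2.72 in EF. All 10 oligodendrocyte markers rose, with sums of 303600 to 374700 in PDGFA and 2685 to 5824 in EF, and Mog at 0 in EF. Of 10 astrocyte markers 6 rose, or 7 in the paired fit, which adds Slc1a2 (adjusted p = 0.0468), with sums of 177600 to 286900 in PDGFA and 51730 to 96730 in EF. Of 8 tested neuron markers 2 rose, and of 2 tested microglia markers 1 fell, P2ry12, which had an adjusted p of 0.0484 in limma and 0.059 in the paired fit.

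All 10 markers of dividing cells fell, with sums of 756 to 1127 in PDGFA and 46450 to 101400 in EF. Of 10 neural progenitor markers, the labelled cell type, 4 rose and 4 fell, with none at 0, sums of 58810 to 63730 in PDGFA and 80310 to 193600 in EF, and Nes at 3420, 2705 and 1600 in PDGFA, against 21110, 31890 and 48050 in EF. The part of these shifts in the cilium gene results was not tested. In such bulk libraries, fewer cells of a type and less RNA per cell cannot be told apart.

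The promoters of some of these genes share letters that RFX factors are known to bind. RFX factors drive ciliary genes through the X-box, searched here as GTNNCC and GGNNAC in that order with 2 bases between them, on both strands, and through its half-site GTTGCC, which can lie inside an X-box. FOXJ1, the forkhead factor of motile cilia, was searched as TGTTTAC. Windows from 250 bases before to 50 after the start, from RefSeq on GRCm38.p6, were found for 62 members, in 65 windows of 300 bases. An X-box stood in 11 of the 65 windows, 16.9%, where 1.88% of all 32851 windows held one. The half-site stood in 41.5% of member windows and 12.5% of all windows, and the forkhead letters in 4.62% and 3.65%. Of members that rose, 5 of 19 windows held an X-box, of those that fell 0 of 3, of those not called 5 of 33, and of those not tested 1 of 10, that of Cfap206. The half-site stood in 6 of the 19, 2 of the 3, 16 of the 33 and 3 of the 10, so it was less frequent among members that rose than among those not called. Neither match stood in 10, 1, 16 and 6 of these windows. A match is a description of letters, not a site.

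The following 9 promoters were chosen after their values were seen. They are those of all 5 members that rose whose window held an X-box, of Cfap44, which had the highest fold change, of Hydin, which fell, and of Bbs2 and Bbs10, which rose with neither match, as in 10 of the 19 windows of members that rose. Capitals mark X-box and half-site matches, and each sequence reads 5′ to 3′ on the gene's strand. Ift22 (chr5:136907900-136908199, plus strand) held 2 X-boxes, which began 63 and 33 bases before the start. The X-box of Rsph9 (chr17:46144151-46144450, minus strand) began 6 bases before the start, that of Bbs1 (chr19:4906578-4906877, minus strand) 1 base after it and that of Bbs4 (chr9:59353459-59353758, minus strand) 23 bases after it. Tctn2 (chr5:124598499-124598798, plus strand) had an X-box that began 62 bases before the start and a half-site after it. Cfap44 (chr16:44394549-44394848, plus strand) had half-sites only, as did Hydin (chr8:110266727-110267026, plus strand). Bbs2 (chr8:94098460-94098759, minus strand) and Bbs10 (chr10:111298429-111298728, plus strand) have no capitals.
Ift22: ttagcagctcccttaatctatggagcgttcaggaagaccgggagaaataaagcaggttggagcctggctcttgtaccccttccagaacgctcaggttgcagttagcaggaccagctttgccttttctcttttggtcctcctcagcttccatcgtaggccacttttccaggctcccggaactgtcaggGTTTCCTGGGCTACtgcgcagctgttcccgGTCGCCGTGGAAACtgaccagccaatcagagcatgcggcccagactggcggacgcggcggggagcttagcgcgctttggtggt
Rsph9: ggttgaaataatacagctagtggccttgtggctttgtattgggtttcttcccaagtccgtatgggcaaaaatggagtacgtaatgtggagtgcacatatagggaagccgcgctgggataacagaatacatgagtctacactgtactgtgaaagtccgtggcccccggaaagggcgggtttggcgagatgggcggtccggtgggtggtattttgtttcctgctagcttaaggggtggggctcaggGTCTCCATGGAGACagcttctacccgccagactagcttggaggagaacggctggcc
Bbs1: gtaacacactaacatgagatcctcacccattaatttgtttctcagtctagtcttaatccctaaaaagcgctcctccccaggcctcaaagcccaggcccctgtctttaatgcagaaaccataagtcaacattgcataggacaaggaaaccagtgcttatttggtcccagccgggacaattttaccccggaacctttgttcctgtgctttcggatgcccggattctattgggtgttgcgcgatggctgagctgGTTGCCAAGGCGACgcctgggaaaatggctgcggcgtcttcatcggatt
Bbs4: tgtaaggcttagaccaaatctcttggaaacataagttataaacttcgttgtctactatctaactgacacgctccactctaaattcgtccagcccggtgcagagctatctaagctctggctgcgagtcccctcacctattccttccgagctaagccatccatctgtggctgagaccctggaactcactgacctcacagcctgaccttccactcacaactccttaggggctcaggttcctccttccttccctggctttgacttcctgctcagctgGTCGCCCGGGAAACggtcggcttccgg
Tctn2: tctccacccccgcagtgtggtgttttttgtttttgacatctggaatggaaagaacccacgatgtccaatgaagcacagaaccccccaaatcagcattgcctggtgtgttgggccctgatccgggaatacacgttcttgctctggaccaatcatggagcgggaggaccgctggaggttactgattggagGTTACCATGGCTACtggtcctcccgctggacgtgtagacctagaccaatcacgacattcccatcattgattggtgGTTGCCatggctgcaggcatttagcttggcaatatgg
Cfap44: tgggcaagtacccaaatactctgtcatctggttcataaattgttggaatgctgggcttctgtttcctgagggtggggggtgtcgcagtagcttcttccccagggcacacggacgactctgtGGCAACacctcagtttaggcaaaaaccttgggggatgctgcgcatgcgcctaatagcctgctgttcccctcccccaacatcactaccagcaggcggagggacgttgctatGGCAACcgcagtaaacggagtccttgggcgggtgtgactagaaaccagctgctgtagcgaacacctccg
Hydin: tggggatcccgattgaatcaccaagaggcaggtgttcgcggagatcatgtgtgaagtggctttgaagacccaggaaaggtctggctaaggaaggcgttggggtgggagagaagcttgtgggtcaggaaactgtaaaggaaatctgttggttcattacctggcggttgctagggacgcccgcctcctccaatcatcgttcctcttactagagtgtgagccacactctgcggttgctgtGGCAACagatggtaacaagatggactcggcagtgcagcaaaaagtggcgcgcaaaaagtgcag
Bbs2: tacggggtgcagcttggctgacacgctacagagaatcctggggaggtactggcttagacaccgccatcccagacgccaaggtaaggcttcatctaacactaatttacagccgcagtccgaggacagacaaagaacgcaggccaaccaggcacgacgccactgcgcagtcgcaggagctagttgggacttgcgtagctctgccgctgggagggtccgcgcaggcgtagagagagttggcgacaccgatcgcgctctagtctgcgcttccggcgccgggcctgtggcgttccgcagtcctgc
Bbs10: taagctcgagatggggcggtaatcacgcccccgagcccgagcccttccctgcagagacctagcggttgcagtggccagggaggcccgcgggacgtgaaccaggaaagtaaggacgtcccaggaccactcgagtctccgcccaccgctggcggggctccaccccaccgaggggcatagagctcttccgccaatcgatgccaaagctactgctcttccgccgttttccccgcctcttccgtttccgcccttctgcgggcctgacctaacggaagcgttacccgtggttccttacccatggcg

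In the IFT-A complex 1 of 3 genes rose. Ift122, a core subunit of the returning train (chr6:115853470-115926699), had 1715, 2008 and 1897 normalized counts in the PDGFA libraries, against 1318, 868 and 1001 in the EF libraries. Every PDGFA library lay above every EF library, and the log2 fold change was 0.84 ± 0.18 (SE, limma adjusted p = 0.00925). Its adjusted p was 0.0504 without the PDGFA library of mouse 68 and ran from 0.0012 to 0.183 over its alternatives. Ift140, another core subunit and the IFT-A gene with the highest level per kb of exon, had 2459, 2399 and 2172 in PDGFA, against 2975, 2234 and 2019 in EF. The groups overlapped, and its log2 fold change was -0.02 ± 0.17 (SE, limma adjusted p = 0.929). Ift43, a small subunit, was at 304 ± 14.7 in PDGFA and 285 ± 60.0 in EF (SD, n = 3 each), with a log2 fold change of 0.11.

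In the IFT-B1 core 3 of 7 genes rose. Ift22, a RAB-like small GTPase (chr5:136908150-136915404), had 696, 764 and 806 normalized counts in the PDGFA libraries, against 271, 319 and 382 in the EF libraries. The lowest PDGFA value was above the highest EF value, the means were 755 ± 55.3 in PDGFA and 324 ± 55.8 in EF (SD, n = 3 each), and the log2 fold change was 1.23 ± 0.19 (SE, limma adjusted p = 0.00197). Ift22 was called under every alternative run. Ift46, known in the alga Chlamydomonas for bringing outer dynein arms into the flagellum, had 1305, 1366 and 1360 in PDGFA, against 929.9, 695 and 615 in EF. The groups stood apart, with a log2 fold change of 0.87 ± 0.18 (SE, limma adjusted p = 0.00777). Ift81, which binds tubulin cargo together with Ift74, had 809.7, 919 and 893 in PDGFA, against 723, 528 and 592 in EF. These groups did not overlap either, but the rise was small, 0.52 ± 0.17 (SE, limma adjusted p = 0.0455). Paired by mouse, its adjusted p was 0.103. It was also above 0.05 when PDGFA 62 (0.0975), PDGFA 68 (0.175), PDGFA 69 (0.132), EF 68 (0.114) or EF 69 (0.0727) was left out, within 0.0116 to 0.55 over its alternatives.

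Ift88, the core subunit whose loss stops cilia from forming in mice, had 263, 288 and 296 normalized counts in the PDGFA libraries, against 339, 159.9 and 238 in the EF libraries. The EF library of mouse 62 was above all PDGFA libraries, and the log2 fold change was 0.27 ± 0.29 (SE, limma adjusted p = 0.505). Ift52, the IFT-B1 gene with the highest level per kb, had 773, 883 and 919 in PDGFA, against 671, 627 and 596 in EF. Its groups did not overlap but it missed the threshold, with a log2 fold change of 0.44 ± 0.15 (SE, limma adjusted p = 0.0505), while edgeR gave 0.0457, DESeq2 0.0262 and limma 0.0313 once EF 62 was left out, ranging from 0.0262 to 0.508 over its alternatives. Ift27, a GTPase that helps the BBSome leave the cilium, had PDGFA values of 611, 651 and 645, against EF values that spread over 306, 622 and 988. Ift74, the partner of Ift81, had a log2 fold change of 0.09.

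None of the 4 peripheral IFT-B2 genes was called, by limma, edgeR or DESeq2. Ift20, which also sits at the Golgi and had the highest level per kb of all transport genes, 433 in PDGFA and 437 in EF, had 718, 656 and 608 normalized counts in the PDGFA libraries, against 651, 623 and 727 in the EF libraries. The groups overlapped, with a log2 fold change of -0.01 ± 0.16 (SE, limma adjusted p = 0.949). Ift172, the largest IFT-B subunit, Ift57 and Ift80 also overlapped, and the log2 fold changes of the 4 genes lay between -0.13 and -0.0045. No IFT-B2 gene had an unadjusted p under 0.05.

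In the BBSome 3 of 6 genes rose. Bbs1, the subunit that binds the membrane GTPase ARL6 (chr19:4886878-4906628), had 1013, 1164 and 959.6 normalized counts in the PDGFA libraries, against 540.1, 473 and 458 in the EF libraries. All PDGFA values exceeded all EF values, with means of 1046 ± 106 in PDGFA and 490.2 ± 43.9 in EF (SD, n = 3 each) and a log2 fold change of 1.09 ± 0.16 (SE, limma adjusted p = 0.00153). Bbs2, which had the highest level per kb of the BBSome genes, had 729, 823 and 1001 in PDGFA, against 419.5, 399.7 and 368 in EF. Its groups did not overlap, with a log2 fold change of 1.09 ± 0.18 (SE, limma adjusted p = 0.00259). Bbs4, which also sits at the material around the centrosome, had 382, 402 and 398 in PDGFA, against 219, 173 and 162 in EF. These too were apart, with a log2 fold change of 1.10 ± 0.20 (SE, limma adjusted p = 0.00477), while 194 exon bases lie opposite exons of Adpgk, whose log2 fold change was -0.96 and whose reads this library kit cannot tell from those of Bbs4 there. Bbs9, Bbs7 and Bbs5, a lipid-binding subunit, were not called, at log2 fold changes of 0.41, -0.16 and -0.23, though the groups of Bbs9 did not overlap.

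Of the pair of chaperonin-like proteins that assemble the BBSome, Bbs10 rose and Bbs12 was not called. Bbs10 had 225, 264 and 259.8 normalized counts in the PDGFA libraries, against 124, 115 and 97.2 in the EF libraries. The groups did not overlap and it rose, with a log2 fold change of 1.15 ± 0.23 (SE, limma adjusted p = 0.0062). Bbs12, with the higher level per kb of the pair, had 108, 125 and 127 in PDGFA, against 170.5, 166 and 267 in EF. Its PDGFA values were all below its EF values, with a log2 fold change of -0.71 ± 0.27 (SE, limma adjusted p = 0.0758), which misses the threshold, while DESeq2 called it lower (adjusted p = 0.0271), within 0.0271 to 0.313 over its alternatives.

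Of the tectonics, transition zone proteins needed for Hedgehog signalling in mice, 1 of 3 rose. Tctn2 (chr5:124598749-124627738) had 545, 663 and 681 normalized counts in the PDGFA libraries, against 336, 322 and 462 in the EF libraries. Its groups did not overlap, with a log2 fold change of 0.76 ± 0.21 (SE, limma adjusted p = 0.0222). The adjusted p was 0.100 without PDGFA 68, 0.0856 without PDGFA 69 and 0.0615 without EF 68, ranging from 0.00357 to 0.32 over its alternatives. Tctn1 had 883, 942 and 979 in PDGFA, against 992, 683 and 662 in EF. The EF library of mouse 62 was the highest of all, and the log2 fold change was 0.29 ± 0.19 (SE, limma adjusted p = 0.271), with an adjusted p of 0.0238 without EF 62 and 0.0238 to 0.775 over its alternatives. Exons of Tctn1 share 1574 bases with exons of Hvcn1 on the opposite strand, and Hvcn1 was at 125 ± 13.1 in PDGFA and 75.1 ± 29.7 in EF (SD, n = 3 each). Tctn3, with the highest level per kb of the tectonics, had 407, 414 and 482 in PDGFA, against 462, 509 and 538 in EF. Its groups overlapped, with a log2 fold change of -0.21 ± 0.17 (SE, limma adjusted p = 0.349).

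**Figure D2:**
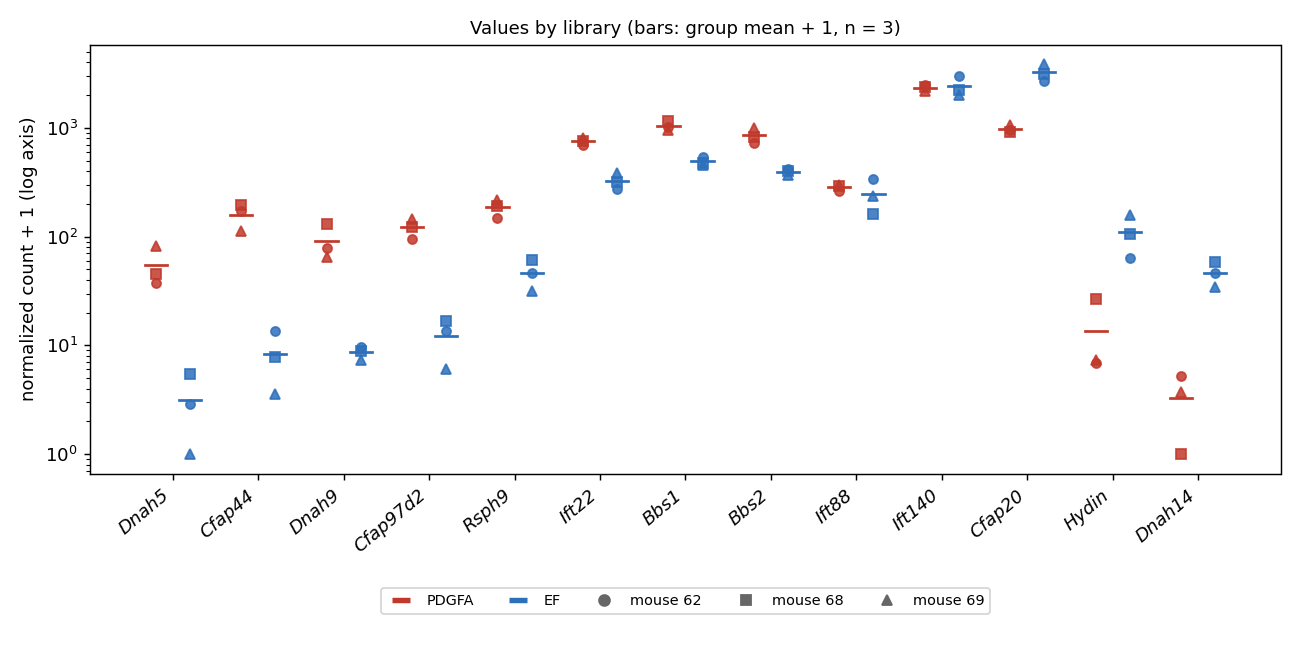
Normalized count + 1 (log axis) of 13 members in each library, with PDGFA left of EF for each gene; markers show the mouse and bars the group mean + 1. Dnah5, Cfap44 and Dnah9 stand far apart between groups at low counts, Ift88 and Ift140 overlap, and Cfap20, Hydin and Dnah14 are lower in PDGFA.

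Outer dynein arms, the motors that give most of the beating force, held some of the largest rises, at low levels. Of 6 genes 5 were tested and 3 rose. Dnah5, a heavy chain of ependymal and airway cilia (chr15:28203752-28472052), had 36.5, 43.9 and 81.5 normalized counts in the PDGFA libraries, against 1.92, 4.50 and 0 in the EF libraries. All PDGFA values lay above all EF values, means were 54.0 ± 24.1 in PDGFA and 2.14 ± 2.26 in EF (SD, n = 3 each), and the log2 fold change was 4.36 ± 0.69 (SE, limma adjusted p = 0.00225). It was 3.69 without the EF library of mouse 69, which had no read. Dnah9, its partner heavy chain towards the ciliary tip (chr11:65831282-66168551), had 78.1, 129 and 63.6 in PDGFA, against 8.62, 7.88 and 6.39 in EF. The groups were far apart, with a log2 fold change of 3.35 ± 0.40 (SE, limma adjusted p = 0.000584), while 495 exon bases lie opposite the unnamed gene Gm12296, whose log2 fold change was 3.12. Cfap70, an outer arm protein, had 32.2, 28.6 and 32.2 in PDGFA, against 5.75, 2.25 and 1.28 in EF. Each PDGFA value was several times each EF value, with a log2 fold change of 3.12 ± 0.50 (SE, limma adjusted p = 0.00243).

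The remaining outer arm heavy chains are best known from sperm and from the left-right organizer. Dnah17, a sperm outer arm chain, had 54.3, 52.5 and 34.9 in PDGFA, against 50.8, 10.1 and 6.39 in EF. The EF library of mouse 62 was level with PDGFA, and the log2 fold change was 1.55 ± 0.72 (SE, limma adjusted p = 0.124). Without EF 62 it was 2.39 with an adjusted p of 0.00422, ranging from 0.00422 to 0.457 over its alternatives. Dnah8, its sperm counterpart, had 11.0, 13.4 and 5.38 in PDGFA, against 18.2, 27.0 and 7.67 in EF, at a log2 fold change of -0.69, with overlapping groups. Dnah11, below the filter, had 10.2, 20.1 and 17.9 in PDGFA, against 0.958, 3.38 and 0 in EF. Its groups did not overlap, and 642 of its exon bases lie opposite Cdca7l, whose log2 fold change was -3.81. The summed count of the 6 outer arm genes was 222, 287 and 236 in PDGFA, against 86.2, 55.2 and 21.7 in EF.

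Inner dynein arms, which shape the bend, gave 3 rises and 1 fall among 9 tested of 14 genes. Cfap44, which with Cfap43 tethers a double-headed inner arm (chr16:44394796-44482428), had 169.7, 193 and 112 normalized counts in the PDGFA libraries, against 12.4, 6.75 and 2.56 in the EF libraries. The lowest PDGFA value was many times the highest EF value, the means were 158 ± 41.7 in PDGFA and 7.25 ± 4.97 in EF (SD, n = 3 each), and the log2 fold change was 4.43 ± 0.54 (SE, limma adjusted p = 0.000658), the highest among the tested members. Its partner Cfap43, below the filter, had 3.40, 7.64 and 0.896 in PDGFA, against 3.83, 2.25 and 3.83 in EF, with overlapping groups. Cfap57, an inner arm docking protein, had 32.2, 39.1 and 14.3 in PDGFA, against 7.66, 2.25 and 5.11 in EF. The groups did not overlap, with a log2 fold change of 2.30 ± 0.56 (SE, limma adjusted p = 0.0154), with adjusted p of 0.0598 without PDGFA 62 and 0.0724 without PDGFA 68, ranging from 0.00527 to 0.271 over its alternatives. Dnah2, a heavy chain of the same double-headed arm with 312 exon bases opposite Dnah2os, had 54.3, 92.6 and 84.2 in PDGFA, against 38.3, 32.6 and 20.4 in EF. Its groups were apart, with a log2 fold change of 1.32 ± 0.38 (SE, limma adjusted p = 0.0296), but in the paired fit it had an adjusted p of 0.0611. It was 0.130 without PDGFA 68, 0.100 without PDGFA 69, 0.0552 without EF 68 and 0.0583 without EF 69, ranging from 0.00811 to 0.286 over its alternatives.

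Dnah14, a little studied heavy chain grouped here with the inner arms (chr1:181576559-181815774), went the other way. It had 4.24, 0 and 2.69 normalized counts in the PDGFA libraries, against 45.0, 57.4 and 33.2 in the EF libraries. All PDGFA values were below all EF values, with no read in PDGFA 68, and the log2 fold change was -4.07 ± 0.67 (SE, limma adjusted p = 0.00264), or -3.36 without PDGFA 68. Exons of Dnah14 share 440 bases with exons of Lbr, which encodes a nuclear envelope protein, on the opposite strand. Lbr had 857 ± 128 in PDGFA and 4483 ± 1820 in EF (SD, n = 3 each), a log2 fold change of -2.31 (limma adjusted p = 0.00102). With this kit the reads of both genes there cannot be told apart.

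Dnah10, the other heavy chain of the double-headed arm, had 100.2, 71.6 and 90.5 in PDGFA, against 103, 55.2 and 7.67 in EF. The EF values spanned more than the gap between the groups, with a log2 fold change of 1.24 ± 0.84 (SE, limma adjusted p = 0.276), which was 0.19 without EF 69 and 1.99 without EF 62. Cfap100, the inner arm gene with the highest level per kb, had 435, 229 and 263 in PDGFA, against 397, 372 and 246 in EF, at a log2 fold change of -0.15 with overlap. Dnah1 and Dnah12, single-headed chains, were at log2 fold changes of 0.21 and -0.33 and were not called. Dnah7a, Dnah7b and Dnah7c are near copies, which share 30.3% to 38.8% of their 50-base stretches, so how reads were split among them is uncertain. Dnah7b had 113, 221 and 352 in PDGFA, against 199, 143 and 25.6 in EF, and was not called. Dnah7a (0.849, 0.955 and 3.58 in PDGFA, against 8.62, 6.75 and 6.39 in EF) and Dnah7c (0.849, 1.91 and 1.79 in PDGFA, against 7.66, 6.75 and 1.28 in EF) were below the filter.

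Dnah6, a single-headed inner arm chain below the filter, had 6.79, 7.64 and 10.8 in PDGFA and no read in any EF library. Taking 3 reads over the EF group as the floor, its PDGFA mean was 7.49 times that floor. The floor allows for counting noise in EF only, not for the spread between libraries. Dnah3 had 3.40, 2.87 and 4.48 in PDGFA, against 0.958, 0 and 0 in EF, and these groups did not overlap. Its exons share 1506 bases with exons of Lyrm1 on the opposite strand, which had means of 80.3 in PDGFA and 84.0 in EF. Dnah3 had 1 read in all EF libraries, so its fold is loose and is not given. Over the 15 dynein heavy chains the summed count was 509, 691 and 788 in PDGFA, against 533, 391 and 136 in EF. The sums overlapped, since EF 62 lay above PDGFA 62.

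Cfap300 and Cfap298, which help assemble dynein arms in the cytoplasm before they enter the cilium, were 1 rise and 1 gene not called. Cfap300 had 279, 339.9 and 323 normalized counts in the PDGFA libraries, against 205, 176 and 189 in the EF libraries. The groups did not overlap, with a log2 fold change of 0.72 ± 0.20 (SE, limma adjusted p = 0.0252). In the paired fit its adjusted p was 0.0732; it was 0.0624 without PDGFA 62, 0.133 without PDGFA 68, 0.0885 without PDGFA 69 and 0.0611 without EF 68, ranging from 0.00214 to 0.449 over its alternatives. Cfap298, with the higher level per kb, had 316, 350.4 and 329.7 in PDGFA, against 423, 459 and 706 in EF. Of the exon bases of Cfap298, 703 lie opposite Gm49727 and 148 opposite 4930534H18Rik. All its PDGFA values were below its EF values, with a log2 fold change of -0.64 ± 0.23 (SE, limma adjusted p = 0.0628), while edgeR gave 0.0479, DESeq2 0.0228 and limma 0.0286 once EF 62 was left out, ranging from 0.0228 to 0.233 over its alternatives.

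Of the radial spoke genes, which pass signals from the central pair to the dynein arms, 5 of 9 were tested and 1 rose. Rsph9, a spoke head protein (chr17:46122035-46144216), had 148, 190.0 and 217 normalized counts in the PDGFA libraries, against 45.0, 59.7 and 30.7 in the EF libraries. The lowest PDGFA value was well above the highest EF value, the means were 185 ± 34.4 in PDGFA and 45.1 ± 14.5 in EF (SD, n = 3 each), and the log2 fold change was 2.05 ± 0.34 (SE, limma adjusted p = 0.00276). Rsph9 was called under every alternative run. Rsph1, another spoke head protein, had 3.40, 19.1 and 13.4 in PDGFA, against 7.66, 9.01 and 14.1 in EF, with overlap. Rsph4a, a head protein below the filter, had 0.849, 11.5 and 1.79 in PDGFA, against 0.958, 1.13 and 1.28 in EF, so the PDGFA library of mouse 68 stood far above the rest.

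Rsph3a, the spoke gene with the highest level per kb, and Rsph3b encode near-identical stalk proteins and share 74.0% to 75.8% of their 50-base stretches, which leaves the split of their reads uncertain. Rsph3a had 212, 244 and 213 in PDGFA, against 213, 219.5 and 222 in EF, and Rsph3b had 150.2, 176 and 155 in PDGFA, against 121, 115 and 101 in EF. Neither was called, at log2 fold changes of 0.03 and 0.51, and only the groups of Rsph3b did not overlap. Rsph10b was at a log2 fold change of 0.09, and the sperm paralog Rsph6a was below the filter at 5.91 ± 1.94 in PDGFA and 5.23 ± 1.02 in EF (SD, n = 3 each). Cfap206, needed to build a spoke and below the filter, had 9.34, 30.6 and 7.17 in PDGFA and no read in any EF library. Its PDGFA mean was 14.0 times the same floor, with the PDGFA library of mouse 68 far above the other PDGFA libraries. Cfap61, a spoke protein, had 15.3, 15.3 and 15.2 in PDGFA, against 5.75, 3.38 and 1.28 in EF, with no overlap.

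The central pair genes split: 2 rose, 1 fell and 3 were not called among 6 tested of 7. Hydin, whose loss in mice stiffens ependymal cilia and enlarges the ventricles (chr8:110266977-110610253), had 5.94, 25.8 and 6.27 normalized counts in the PDGFA libraries, against 63.2, 106 and 158 in the EF libraries. Every PDGFA value was below every EF value, with means of 12.7 ± 11.4 in PDGFA and 109 ± 47.7 in EF (SD, n = 3 each), and the log2 fold change was -3.22 ± 0.62 (SE, limma adjusted p = 0.00569), or -3.86 without PDGFA 68. On the opposite strand 237 of its exon bases lie across from Gm26832. Cfap69, a central pair protein, had 119.7, 183 and 149 in PDGFA, against 82.4, 25.9 and 40.9 in EF. The groups stood apart, with a log2 fold change of 1.72 ± 0.45 (SE, limma adjusted p = 0.0197), with adjusted p of 0.0841 without PDGFA 68 and 0.0652 without PDGFA 69, ranging from 0.00323 to 0.218 over its alternatives. Cfap46, placed in the central pair from Chlamydomonas, had 120.5, 114 and 86.9 in PDGFA, against 56.5, 36.0 and 33.2 in EF. It too had no overlap, with a log2 fold change of 1.36 ± 0.33 (SE, limma adjusted p = 0.0154), with adjusted p of 0.0708 without PDGFA 62 and 0.0768 without PDGFA 68, ranging from 0.00136 to 0.236 over its alternatives.

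Cfap74, with the highest level per kb of the central pair genes, had 299.6, 244 and 192 in PDGFA, against 207, 142 and 201 in EF, with a log2 fold change of 0.42 ± 0.27 (SE, limma adjusted p = 0.255), with overlap. Cfap54 had 117, 159.5 and 151 in PDGFA, against 552, 163 and 129 in EF. Its EF library of mouse 62 was far above the other EF values, and it was not called, with a log2 fold change of -0.68, or -0.04 without EF 62. Cfap47 was at a log2 fold change of -0.17 and not called. Cfap65, below the filter, had 0, 0.955 and 1.79 in PDGFA, against 2.87, 2.25 and 6.39 in EF, which did not overlap.

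Among proteins inside the doublet microtubules 1 of 4 tested genes fell and none rose (limma, edgeR and DESeq2), with none higher at an unadjusted p under 0.05. Cfap20, which closes the inner junction of the doublet (chr8:95420249-95434869), had 956, 919.5 and 1052 normalized counts in the PDGFA libraries, against 2728, 3132 and 3861 in the EF libraries. The groups were well apart, with means of 976 ± 68.3 in PDGFA and 3240 ± 574 in EF (SD, n = 3 each) and a log2 fold change of -1.72 ± 0.16 (SE, limma adjusted p = 0.000208). Cfap20 was called lower under every alternative run. In EF it had the highest level per kb of all members, 219 in PDGFA and 728 in EF. Cfap126, Cfap45 and Cfap53 were not called, at log2 fold changes of 0.19, -0.26 and -0.22. Cfap52, below the filter, had 3.40, 9.55 and 6.27 in PDGFA, against 0, 1.13 and 1.28 in EF, with no overlap, and Cfap161 had 2.55, 3.82 and 0.896 in PDGFA, against 1.92, 0 and 0 in EF.

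The CFAP genes not placed in these structures were 3 rises among 4 tested. Cfap97d2, whose function is little known, had 95.1, 122 and 144 normalized counts in the PDGFA libraries, against 12.4, 15.8 and 5.11 in the EF libraries. All PDGFA values were several times the EF values, with a log2 fold change of 3.43 ± 0.46 (SE, limma adjusted p = 0.00106). Cfap36, which binds the ciliary GTPase ARL3 and was the member with the highest level per kb in PDGFA (563 in PDGFA and 308 in EF), had 1745, 1495 and 1392 in PDGFA, against 732, 871 and 931 in EF. The groups did not overlap, with a log2 fold change of 0.87 ± 0.16 (SE, limma adjusted p = 0.00454). Cfap97 had 928, 964 and 969 in PDGFA, against 648, 648 and 712 in EF. It rose by a small amount, 0.51 ± 0.14 (SE, limma adjusted p = 0.0216), with an adjusted p of 0.0713 in the paired fit. Leaving out 1 library gave 0.0778 (PDGFA 62), 0.111 (PDGFA 68), 0.0783 (PDGFA 69) and 0.0508 (EF 68), ranging from 0.00139 to 0.414 over its alternatives. Cfap410, a protein of the cilium base, was at a log2 fold change of 0.31 and not called. Cfap157, a basal body protein, and Ift88os were below the filter, at 8.49, 3.82 and 8.06 in PDGFA, against 17.2, 5.63 and 7.67 in EF for Cfap157 and 0.849, 0.955 and 2.69 in PDGFA, against 6.70, 0 and 0 in EF for Ift88os, with overlap.

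**Figure D3:**
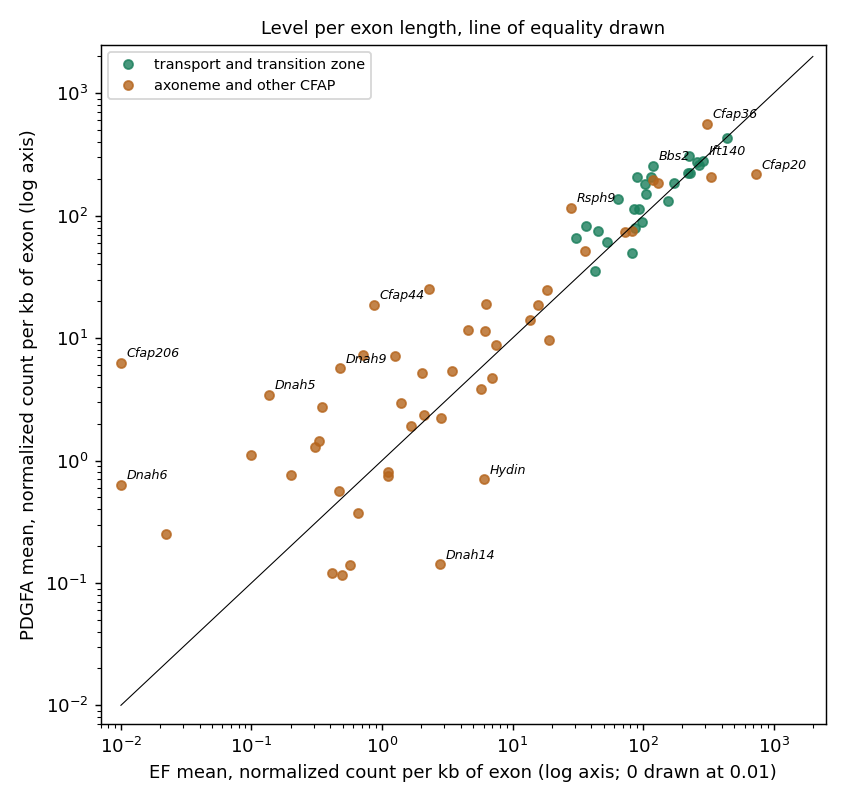
Mean normalized count per kb of exon in PDGFA (y axis) against EF (x axis), both log axes, for the 73 members with an annotated exon length; 1 point per gene, coloured by class, with the line of equality. Transport and transition zone genes sit at high levels, with limma log2 fold changes between -0.71 and 1.23. Cfap206 and Dnah6 are drawn at 0.01 since no EF read was seen.

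Per kb of exon, averaged over the 6 libraries, tested transport and transition zone genes had levels between 38.9 and 435, with a median of 142. Tested axoneme and other CFAP genes had levels between 0.514 and 474 with a median of 8.79. By this average, Cfap36, Cfap97, Cfap100, Cfap298, Cfap300, Rsph3a, Rsph3b and Rsph9 lie within the range of the transport genes. Cfap20, at 474, lies above it, and the 15 dynein heavy chains lie below it. The plot of levels per exon length shows each group's mean. Of the 15 members below the filter, 6 were higher and 2 lower in PDGFA with no overlap, 7 overlapped, and 2 had no EF read. The share over all genes below the filter was not computed, so these counts cannot be read as a trait of the members.

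**Figure D4:**
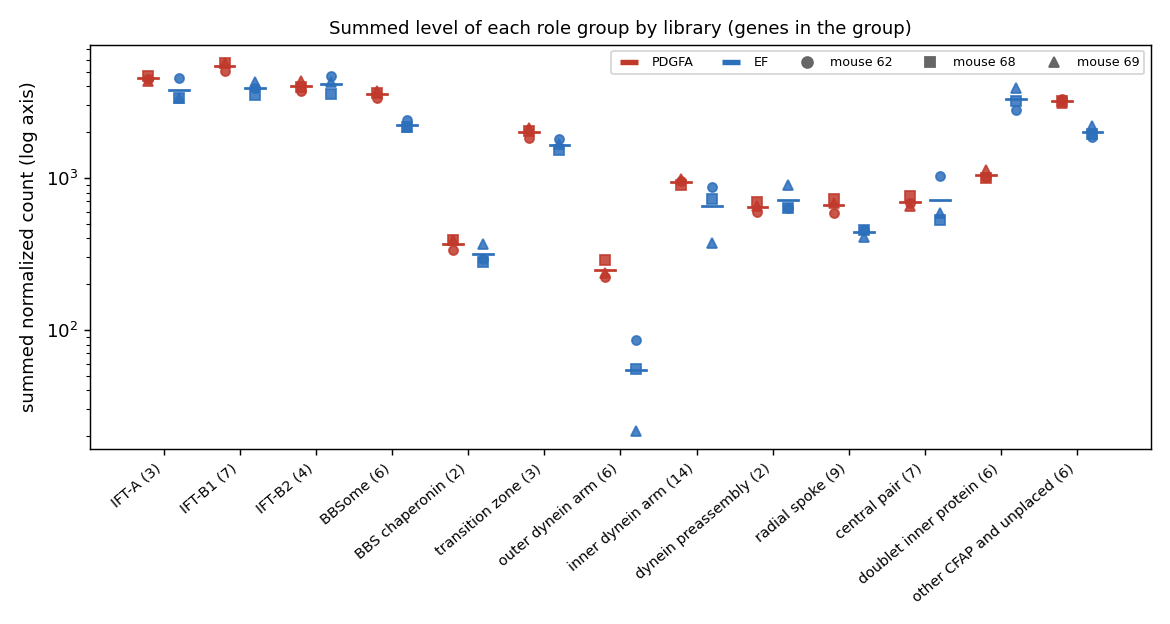
Summed normalized count (log axis) of all members in each role group, by library, with PDGFA left of EF; markers show the mouse, bars the group mean and numbers in brackets the genes summed. The outer dynein arm sum is 222 to 287 in PDGFA and 21.7 to 86.2 in EF, and the doublet inner protein sum, mostly Cfap20, is lower in PDGFA.

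Summed over each role, the BBSome had 3366, 3589 and 3717 in PDGFA, against 2416, 2147 and 2148 in EF. The IFT-B1 sums were 5069, 5690 and 5662 in PDGFA, against 3901, 3496 and 4260 in EF. Both were without overlap, while the IFT-B2 sums overlapped, at 3738, 3967 and 4323 in PDGFA, against 4666, 3565 and 4270 in EF. Central pair sums also overlapped, at 679, 756 and 653 in PDGFA, against 1022, 528 and 583 in EF. Library values of members were closer in PDGFA: the median SD (log2) was 0.189 in PDGFA and 0.385 in EF, where it was 0.172 and 0.380 over all genes tested. The EF library of mouse 62 was the highest EF library for 33 of the 60 tested members, and EF 69 the lowest for 31. The median difference within a mouse was 0.135 (log2) in mouse 62, 0.575 in mouse 68 and 0.585 in mouse 69. These library counts and within-mouse medians were not computed over all genes tested, so they cannot be read as a trait of the members.

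Other genes of the cilium, taken from lists by function and not by symbol, moved in both directions. Over these lists 43 rose and 23 fell among 125 tested, where 21.8% of all genes tested rose and 18.0% fell. In the paired fit 35 rose and 22 fell, where 18.8% of all genes tested rose and 15.4% fell. The counts of each list below are to be read beside these shares, and some lie near or below them. Of IFT subunits and motors under other symbols 9 rose and 2 fell among 21 tested, or 8 and 2 in the paired fit, in which Rabl2 was lost (adjusted p = 0.0538). Ttc30b, an IFT-B subunit, had 372, 478 and 529 in PDGFA, against 137, 127 and 109.9 in EF, with a log2 fold change of 1.86 ± 0.23 (SE, limma adjusted p = 0.000673), and Wdr19, the IFT-A subunit IFT144, had 1143, 1425 and 1644 in PDGFA, against 703, 468 and 405 in EF, with a log2 fold change of 1.44 ± 0.24 (SE, limma adjusted p = 0.00309). In neither gene did the groups overlap. Kif3c, a kinesin-II motor, fell, with a log2 fold change of -0.80 ± 0.14 (SE, limma adjusted p = 0.00299). Tulp3, the adaptor that brings receptors to IFT-A, fell, with a log2 fold change of -0.60 ± 0.17 (SE, limma adjusted p = 0.03), with adjusted p of 0.116 without PDGFA 62, 0.109 without PDGFA 68 and 0.0627 without EF 69, ranging from 0.012 to 0.129 over its alternatives.

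Among other BBS genes 2 rose and 1 fell of 9 tested, or 1 and 0 in the paired fit. Ttc8, the BBSome subunit BBS8, had 467, 542 and 644 in PDGFA, against 279.6, 202 and 238 in EF, without overlap, with a log2 fold change of 1.20 ± 0.22 (SE, limma adjusted p = 0.00409). Lztfl1, which regulates the BBSome, rose at a log2 fold change of 0.53 ± 0.17 (SE, limma adjusted p = 0.0387) and Arl6, which recruits it to membrane, fell at a log2 fold change of -0.55 ± 0.18 (SE, limma adjusted p = 0.0478). Both calls were lost in the paired fit, at adjusted p of 0.0890 for Lztfl1 and 0.121 for Arl6. Without PDGFA 68 they were 0.156 and 0.159, and 3 further single omissions for Lztfl1 and 4 for Arl6 also gave values above 0.05. Over all alternatives they ran from 0.0192 to 0.558 for Lztfl1 and 0.00675 to 0.41 for Arl6. Among 20 transition zone genes 3 rose and 4 fell, or 1 and 4 in the paired fit, in which Iqcb1 and Ahi1 (adjusted p = 0.0794) were lost. Rpgr had a log2 fold change of 0.94 ± 0.19 (SE, limma adjusted p = 0.0071), with an adjusted p of 0.0511 without PDGFA 68, with 3.82e-05 to 0.246 over its alternatives. Iqcb1 had a log2 fold change of 0.57 ± 0.17 (SE, limma adjusted p = 0.0285), and its adjusted p was 0.0787 in the paired fit and 0.141 without PDGFA 68, ranging from 0.00559 to 0.481 over its alternatives. Nphp4 had 321, 308 and 302 in PDGFA, against 721, 787 and 777 in EF, with a log2 fold change of -1.29 ± 0.15 (SE, limma adjusted p = 0.000609). Tmem138 fell, with a log2 fold change of -1.03 ± 0.26 (SE, limma adjusted p = 0.0185), with 0.0602 without PDGFA 68 and no call without PDGFA 62, PDGFA 69 or EF 68, ranging from 0.00067 to 0.145 over its alternatives.

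Among 16 genes of the ciliary membrane and its signalling 3 rose and 5 fell. Sstr3, a somatostatin receptor of neuronal primary cilia, had 31.4, 33.4 and 42.1 in PDGFA, against 0.958, 0 and 0 in EF, which is 1 read in EF. Pkd1, polycystin 1, had 7629, 7828 and 8332 in PDGFA, against 29840, 39940 and 30740 in EF, and Adcy3, the adenylyl cyclase of neuronal cilia, had 384, 449 and 357 in PDGFA, against 876, 1538 and 1254 in EF. Both fell, with log2 fold changes of -2.07 ± 0.17 (SE, limma adjusted p = 0.000101) and -1.59 ± 0.23 (SE, limma adjusted p = 0.00157). Anks6 rose, with a log2 fold change of 0.71 ± 0.18 (SE, limma adjusted p = 0.0184), but was not called when any 1 PDGFA library was left out, at adjusted p of 0.0582 to 0.0789, within 0.00211 to 0.129 over its alternatives.

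Of dynein assembly and docking genes 8 rose and 2 fell among 14 tested. In the paired fit 5 rose and 2 fell, the calls of Ttc25 (adjusted p = 0.101), Ccdc114 (0.059) and Dnal4 (0.0654) being lost. Spag1, an assembly factor, had 1715, 1815 and 2296 in PDGFA, against 427, 258 and 295 in EF, with a log2 fold change of 2.59 ± 0.23 (SE, limma adjusted p = 0.000149), and Ccdc151, an outer arm docking protein, had 115, 127 and 104 in PDGFA, against 29.7, 34.9 and 34.5 in EF, with a log2 fold change of 1.77 ± 0.28 (SE, limma adjusted p = 0.00239). In neither gene did the groups overlap. Dnaaf3 fell, with a log2 fold change of -2.55 ± 0.41 (SE, limma adjusted p = 0.00238). Dnaaf2 fell, with a log2 fold change of -1.21 ± 0.36 (SE, limma adjusted p = 0.0328), with adjusted p of 0.115 without PDGFA 62, 0.0813 without PDGFA 68, 0.0859 without PDGFA 69, 0.0796 without EF 68 and 0.0719 without EF 69, ranging from 0.00429 to 0.211 over its alternatives.

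Of nexin, central pair and other axoneme genes 12 rose and 2 fell among 19 tested, or 11 and 2 in the paired fit, in which Drc3 was lost (adjusted p = 0.0758). Drc1, a nexin-dynein regulatory complex subunit, had 111, 180.5 and 183 in PDGFA, against 8.62, 5.63 and 1.28 in EF, with a log2 fold change of 4.88 ± 0.58 (SE, limma adjusted p = 0.000594), or 4.28 without EF 69. Ak7 had 5.09, 3.82 and 4.48 in PDGFA, against 34.5, 30.4 and 19.2 in EF. It fell, with a log2 fold change of -2.38 ± 0.41 (SE, limma adjusted p = 0.00341). Of the genes named from the lists, Ak7, Drc1 and Sstr3, and Nek2 below, passed the filter with a mean under 10 in their lower group. Mns1 fell at a log2 fold change of -1.20 ± 0.33 (SE, limma adjusted p = 0.0249). The Mns1 call was lost without any 1 PDGFA library, EF 68 or EF 69, at 0.05 to 0.0877, within 0.00136 to 0.118 over its alternatives. Without both libraries of mouse 68, Ttc8 (adjusted p = 0.0723), Kif3c (0.061), Ccdc151 (0.0599) and Ak7 (0.076) were not called either.

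Of transcription factors of the motile cilium programme 3 rose and 3 fell among 12 tested. Foxj1 had 609, 897 and 845 normalized counts in the PDGFA libraries, against 110.1, 257 and 207 in the EF libraries. Its groups did not overlap, with a log2 fold change of 2.09 ± 0.34 (SE, limma adjusted p = 0.00244). Rfx2, an X-box binding factor, had 373, 473 and 567 in PDGFA, against 67.0, 54.0 and 128 in EF, with a log2 fold change of 2.57 ± 0.36 (SE, limma adjusted p = 0.0013). Rfx4, a relative expressed in neural progenitors, had 3291, 4168 and 5593 in PDGFA, against 13630, 7878 and 11380 in EF, with a log2 fold change of -1.33 ± 0.26 (SE, limma adjusted p = 0.00605), and Myb, which acts early in multiciliated cells and in dividing progenitors, had 53.5, 53.5 and 48.4 in PDGFA, against 173, 319.8 and 484 in EF, with a log2 fold change of -2.51 ± 0.39 (SE, limma adjusted p = 0.00206). Of kinases and disassembly genes 3 rose and 4 fell among 14 tested. The mitotic kinases Nek2 and Plk1, which promote loss of the cilium, had 6.79, 11.5 and 10.8 in PDGFA, against 1280, 1825 and 2282 in EF for Nek2 and 30.6, 40.1 and 45.7 in PDGFA, against 1884, 4022 and 5745 in EF for Plk1. Both fell, with log2 fold changes of -7.39 ± 0.32 (SE, limma adjusted p = 1.32e-05) and -6.49 ± 0.40 (SE, limma adjusted p = 3.45e-05). Cilk1, a kinase at the ciliary tip, rose at a log2 fold change of 1.20 ± 0.13 (SE, limma adjusted p = 0.000361), and Cdk20, its activator, with a log2 fold change of 1.16 ± 0.26 (SE, limma adjusted p = 0.0111), with an adjusted p of 0.0661 without PDGFA 68, ranging from 0.000296 to 0.251 over its alternatives.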

How the data were processed

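The authors deposited 1 table of normalized signal, read counts per gene divided by a size factor per library, covering 22057 gene symbols. Per the submitters' processing notes, FastQC, STAR and DESeq2 were used with build mm10 (GRCm38); versions, the annotation and strand setting are not stated in what was used here. Libraries were made from 1.3 ug of total RNA with the NEBNext Ultra II kit, per the labels' protocols.

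Dividing by the smallest value above 0 of each library gave whole reads for 100% of values within 0.001, so whole reads were recovered: 27270246 to 39601349 per library. Genes with a mean of at least 10 (17068) were tested as log2(value + 1) with limma 3.58.1 (trend, two-sided, Benjamini-Hochberg) in R 4.3.3; alternatives on the recovered reads used edgeR 4.0.16 and DESeq2 1.42.0. The design foresaw a normalized unit, so the log-scale test is the main one. The scripts were tested on simulated data.

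Both groups come from the same 3 mice, so libraries with the same mouse number in their titles share an animal. The paired libraries' deviations from the group means correlated at -0.091 (mouse 62), 0.11 (mouse 68) and -0.11 (mouse 69). The fit without the mouse as a block is reported, and the blocked value where it changes a call. Within a group, every pair of libraries differed beyond sampling noise, with a chi-square of 20 to 140 per degree of freedom. Other alternatives were the pseudocount, the filter, TMM scaling, each library left out and both libraries of mouse 68 left out. The other mice were not left out with both their libraries.

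The members and the lists were chosen with earlier results of these data known. Within each role, all-library values are given for up to 3 called members each way with the largest change, the member with the highest level per kb, Hydin, Ift88 and the tectonics, and others were named after their values were seen. From each list outside the name rule, up to 2 called genes each way with the smallest p were taken. One gene that this rule takes is not reported here. Of the members, 73 matched GENCODE M21 (GRCm38) for coordinates and exon length, and 62 matched RefSeq promoters (GRCm38.p6).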

Additional observations from a re-analysis of the deposited data

How the results depend on the processing

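Of the cilium members 22 rose and 3 fell. These counts were 22 and 3 with pseudocounts of 0.5 and 5, 27 and 4 of 75 with no filter, 19 and 2 of 45 with a mean of at least 50, 23 and 3 with TMM, 23 and 4 with edgeR and 23 and 5 with DESeq2. In these settings 36.0% to 42.2% of the members tested rose, where 19.3% to 23.3% of all genes tested did, and 4.44% to 8.33% fell, where 15.2% to 21.9% did. With the mouse as a block they were 18 and 3, where 18.8% of all genes tested rose and 15.4% fell, and the calls of Ift81, Cfap97, Cfap300 and Dnah2 were lost. The other cilium genes were 35 and 22. Leaving out 1 library gave 13 to 25 higher and 3 to 4 lower members, and 24 to 47 higher and 15 to 29 lower of the 125 other cilium genes, against 43 and 23. Over all genes the ranges were 2306 to 4213 higher and 1855 to 3848 lower, against 3720 and 3076, with the lowest counts without PDGFA 68. As shares of all genes tested these were 13.5% to 24.7% higher and 10.9% to 22.5% lower. Without both libraries of mouse 68 the counts were 9 and 3 for members, 13 and 12 for the other cilium genes and 1945 and 1335 for all genes (11.4% and 7.82%). With the block added they were 8 and 3, 15 and 14, and 2395 and 1879. There 13.3% of the members tested rose and 5% fell, where 14% of all genes tested rose and 11% fell. These omissions leave fewer samples, and no mouse other than 68 was left out with both its libraries. The members' median stayed between 0.215 and 0.464. The block ended 4 calls of members and those of Iqcb1, Lztfl1 and Arl6 and no other call of a gene named by the rule.

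No called member changed sign. Among members not called, 20 near 0 did, in 46 values. Leave-one-out log2 fold changes ran from -0.05 to 0.58 for Cfap126, -0.53 to 0.15 for Cfap45, -0.47 to 0.05 for Bbs5, -0.80 to 0.30 for Cfap47, -0.23 to 0.02 for Ift80, -0.06 to 0.26 for Ift74, -0.14 to 0.22 for Ift172, -0.16 to 0.36 for Rsph10b, -0.43 to 0.03 for Cfap100 and -0.72 to 0.15 for Dnah12. They ran from -0.07 to 0.35 for Dnah1, -0.01 to 0.53 for Ift88, -0.08 to 0.05 for Ift20, -0.0024 to 0.28 for Ift43, -0.30 to 0.54 for Ift27, -0.13 to 0.21 for Ift57, -0.04 to 0.06 for Rsph3a, -0.14 to 0.14 for Ift140, -0.46 to 0.64 for Rsph1 and -0.63 to 0.43 for Cfap53. Without both libraries of mouse 68, with or without the block, they were 0.18 for Cfap47, -0.15 for Ift74, 0.11 for Cfap100, -0.03 for Ift88 and -0.03 for Rsph3a. Ift172 was 0.00015 with TMM, Ift27 -0.01 with DESeq2, and Rsph1 0.05 with a pseudocount of 5, 0.23 with edgeR and 0.22 with DESeq2. The cause was not tested. Depth limits the 15 members below the filter, and counting covers only part of their error.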
